A study of Homo sapiens with 8 samples.

Results

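The protein disulfide isomerases and the ERO1 oxidases form and rearrange the disulfide bonds of proteins in the endoplasmic reticulum (ER). RNA levels of 10 such genes were followed here by name: P4HB, PDIA3, PDIA4, PDIA5, PDIA6, TXNDC5, TXNDC11 and TMX1, which encode members of the isomerase family, and ERO1A and ERO1B, which encode the oxidases. A gene was measured where the array held a probe set annotated with its symbol alone. This was so for 8 of the 10 genes, with 20 of the 41091 such probe sets on the array, and the 8 genes are among 19775 measured in the same way. For PDIA5 and TXNDC5 each probe set was annotated with several symbols, and they were not analysed here.

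An isomerase carries pairs of cysteines that pass a disulfide to a folding protein, or break and reshuffle a wrong one, and it is itself reduced in doing so. The ERO1 oxidases take the electrons back from the isomerases and hand them to oxygen, which yields hydrogen peroxide. ERO1A is known as a gene induced by hypoxia, and several isomerases as targets of the unfolded protein response, in which the ER sensor IRE1 splices the mRNA of XBP1 so that it encodes an active transcription factor.

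The arrays came from 2 human breast cancer lines: T47D, which is luminal and hormone receptor-positive, and MDA-MB-231, which is triple-negative with mesenchymal features. Cells carried a lentiviral hairpin, either a control (shCtrl) or one against XBP1 (shXBP1), and were kept in puromycin after infection. All 8 arrays, 2 for each of the 4 combinations of line and hairpin, are from cells held for 24 h at 0.1% O2 in glucose-free medium, so the controls carry the same stress. The labels name neither the hairpin sequence nor whether the infected cells were a clone or a pool. The labels call the replicates biological without saying what was separate between them, so the p-values rest on a spread that could be technical alone. The comparisons ask what loss of XBP1 does to these transcripts under the combined stress, and how the lines differ. Levels are deposited log2 RMA values, changes are differences of log2 means with limma standard errors (SE), and a change was called at an adjusted p under 0.05.

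The level of the targeted gene followed the labels. XBP1 was at 12.41 and 12.56 on the T47D shCtrl arrays against 7.52 and 7.16 with shXBP1, and at 10.83 and 10.69 against 7.13 and 6.69 in MDA-MB-231, which is 35.4-fold lower (adjusted p = 8.68e-06) and 14.4-fold lower (adjusted p = 6.93e-05). The mean of 7 luminal markers lay between 12.96 and 13.17 on the T47D arrays and between 7.47 and 7.83 on the MDA-MB-231 arrays. The mean of 6 mesenchymal markers ran the other way, 5.69 to 5.91 and 10.68 to 10.87. Of 5 leukocyte markers 3 were measured, with a mean between 4.97 and 5.43, under the median of all array values (5.90). Of these 3, CD3E was above that median on every array except the MDA-MB-231 shXBP1 arrays. The 6 fibroblast markers averaged 5.90 to 6.16, with COL1A2, COL3A1 and LUM under that median on every array. COL1A1 (8.97 to 10.21), DCN (6.19 to 6.54) and PDGFRB (6.07 to 6.69) were above it on every array. The 3' minus 5' difference of ACTB, a measure of RNA quality, was 1.21 to 1.30 with shCtrl and 0.893 to 1.10 with shXBP1 in MDA-MB-231, and overlapped between the hairpins in T47D (0.971 to 1.03 and 0.974 to 1.26). The same measure for GAPDH overlapped between the hairpins in MDA-MB-231 (0.271 to 0.334 and 0.304 to 0.320) and in T47D (0.237 to 0.330 and 0.157 to 0.283). The part of RNA quality in the changes below was not tested.

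Loss of XBP1 moved the isomerase and oxidase transcripts little in either line, with the exception of PDIA3, whose probe sets went opposite ways. At the brightest probe set of each gene, PDIA6 fell 1.31-fold and PDIA3 rose 1.26-fold in T47D, while TMX1 fell 1.29-fold and TXNDC11 rose 1.32-fold in MDA-MB-231. P4HB, PDIA4, ERO1A and ERO1B passed in neither line. That is 2 of 8 genes called in each line, or 25.0%, beside 29.1% of all genes in T47D and 17.2% in MDA-MB-231. By direction, 15.5% of all genes rose and 13.5% fell in T47D, and 10.6% rose and 6.68% fell in MDA-MB-231. The median of the 8 genes' changes was -0.03 (T47D) and -0.04 (MDA-MB-231), beside -0.02 and 0.03 over all genes. No member reached a 1.5-fold change with its brightest probe set. In bulk RNA, fewer cells with a transcript and less of it per cell cannot be told apart.

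**Figure D1:**
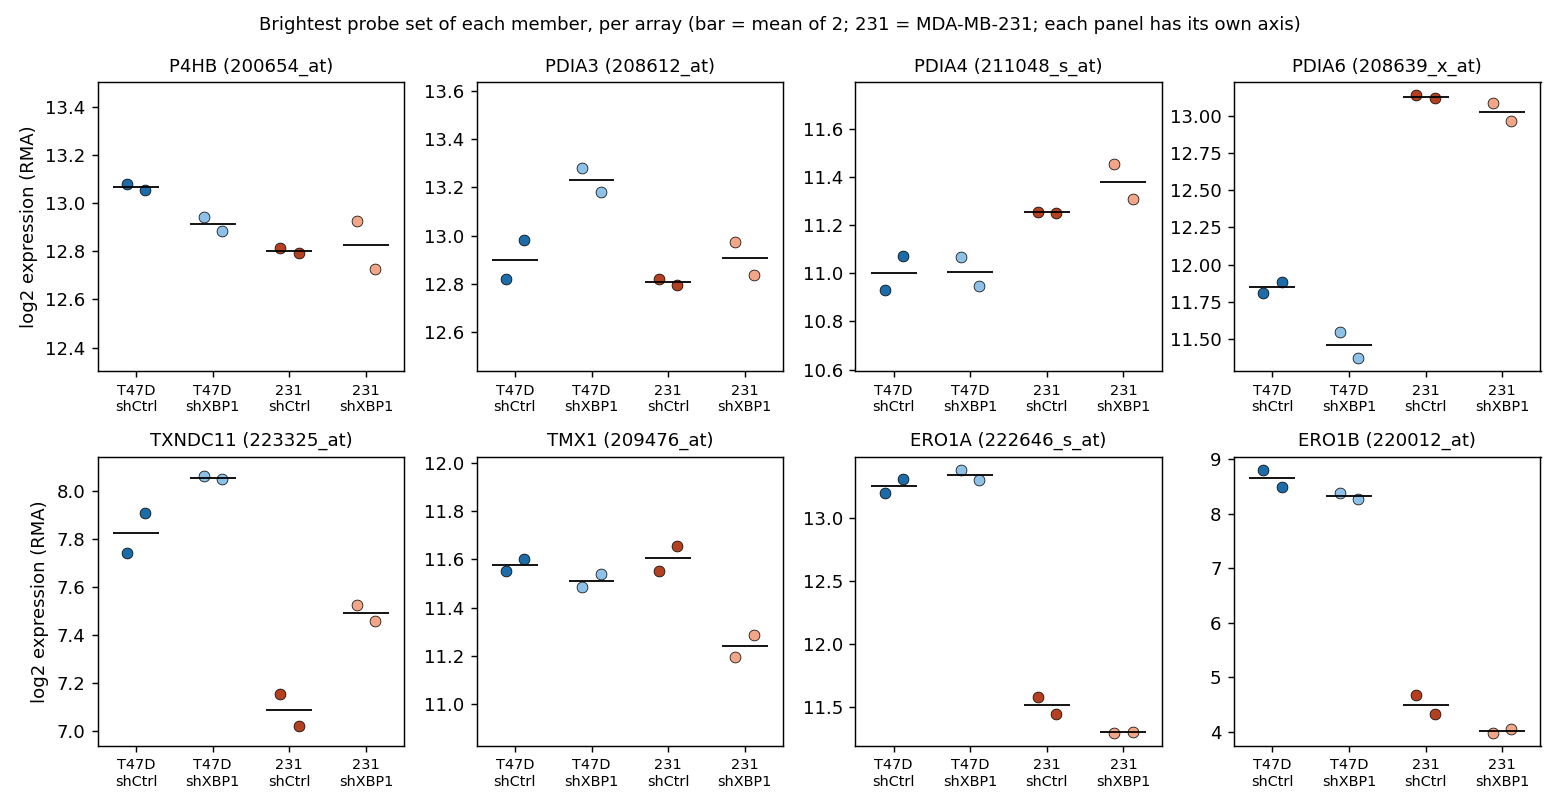
Log2 expression of the brightest probe set of each of the 8 measured members in the 4 groups, 1 point per array and a bar at the mean of 2; each panel has its own axis, at least 1.2 log2 units long. ERO1A, ERO1B and TXNDC11 sit lower, and PDIA4 and PDIA6 higher, on all 4 MDA-MB-231 arrays than on all 4 T47D arrays. The steps between shCtrl and shXBP1 within a line are 0.48 log2 units or less.

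The probe sets of these genes other than the brightest gave a different count in T47D. Of the 20 probe sets tested singly over all 41091, 7 fell and 0 rose in T47D (35.0% called, beside 24.3% of all probe sets, 13.2% higher and 11.0% lower), and they belong to P4HB, PDIA3, PDIA6 and ERO1A. Of the 20 changes 15 were negative, and in 14 probe sets both shXBP1 arrays lay under both shCtrl arrays. The matching shares over all probe sets were not computed, and several of the 20 probe sets read the same gene. These counts therefore do not show a fall of the family as a whole. The median of the 20 changes was -0.23, beside -0.01 over all probe sets. In MDA-MB-231, 2 of the 20 fell and 1 rose (beside 15.8% of all probe sets called, 7.80% higher and 8.03% lower), with a median of -0.12 beside 0.01. Leaving out any 1 of the T47D arrays left 2 or 3 of the 7 called in T47D: 3 without shCtrl replicate 1, and 2 without shCtrl replicate 2, shXBP1 replicate 1 or shXBP1 replicate 2. In MDA-MB-231 the count went to 0 without shCtrl replicate 1 or shXBP1 replicate 1, and to 1 without shXBP1 replicate 2 or either T47D shXBP1 array.

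**Figure D2:**
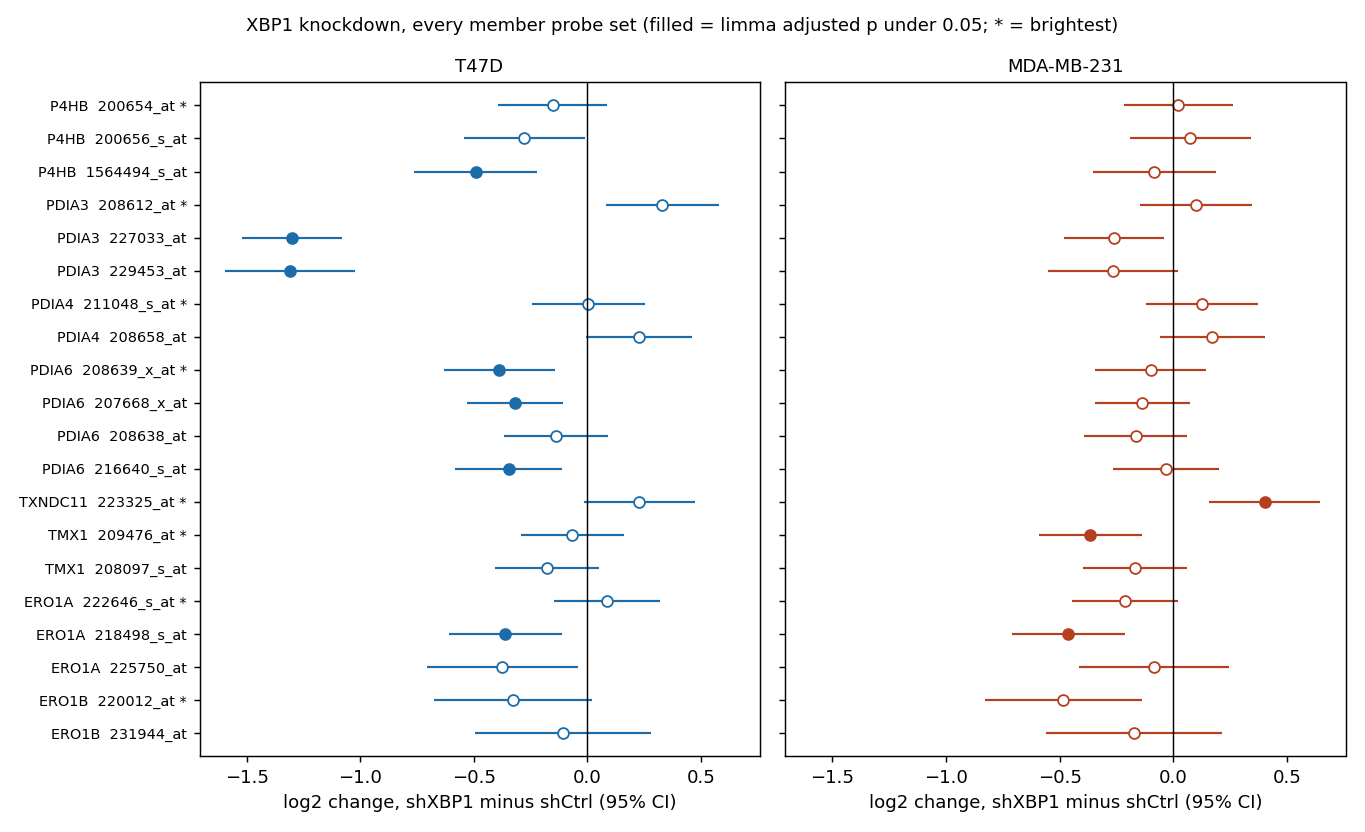
Change on XBP1 knockdown (log2, shXBP1 minus shCtrl, with 95% confidence intervals) of all 20 member probe sets in T47D (left) and MDA-MB-231 (right), tested singly; filled points passed limma's test, and an asterisk marks the brightest probe set of a gene. The PDIA3 probe sets 227033_at and 229453_at stand at -1.30 and -1.31 in T47D, apart from the other 18.

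PDIA3, also known as ERp57, works on glycoproteins that calnexin and calreticulin hold. Its brightest probe set (208612_at) read 12.82 and 12.98 on the T47D shCtrl arrays and 13.28 and 13.18 on the shXBP1 arrays, and 12.82 and 12.79 against 12.97 and 12.84 in MDA-MB-231. The knockdown arrays were the higher ones in both lines, by 0.33 in T47D (SE 0.10, limma adjusted p = 0.0406) and by 0.10 in MDA-MB-231 (95% interval -0.13 to 0.33, adjusted p = 0.568). The T47D call was lost without any 1 of the 4 T47D arrays or either MDA-MB-231 shCtrl array (values 0.25 to 0.41, adjusted p up to 0.208), and with the p-values adjusted over probe sets it was 0.0598.

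The dimmer PDIA3 probe sets showed the reverse. Probe set 227033_at read 9.94 and 10.02 with shCtrl against 8.67 and 8.69 with shXBP1 in T47D, and 9.20 and 9.29 against 9.01 and 8.95 in MDA-MB-231. Probe set 229453_at read 8.83 and 9.10 against 7.66 and 7.66 in T47D, and 8.03 and 8.13 against 7.72 and 7.91 in MDA-MB-231. In both probe sets the shXBP1 arrays lay under the shCtrl arrays of their line with no overlap, and the 4 group means had the same order, T47D shCtrl highest and T47D shXBP1 lowest.

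In T47D the changes were -1.30 (SE 0.10, limma adjusted p = 7.99e-05), or 2.46-fold lower, and -1.31 (SE 0.12, adjusted p = 0.00022), or 2.48-fold lower. They were called under all 13 settings tried for them, with values from -1.35 to -1.26 and from -1.44 to -1.17. In MDA-MB-231 they were -0.26 (SE 0.10, adjusted p = 0.111) and -0.27 (SE 0.12, adjusted p = 0.206), which did not pass. The changes of the lines differed by 1.04 in each probe set (SE 0.14 and 0.18, adjusted p = 0.00148 and 0.00437, with limma's interaction test), in all 12 settings tried.

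The gap between PDIA3's brightest probe set and 227033_at was thus 2.88 and 2.96 on the T47D shCtrl arrays and 4.61 and 4.50 on the shXBP1 arrays, a widening of 1.63. In MDA-MB-231 it went from 3.62 and 3.51 to 3.97 and 3.88, a widening of 0.36. With the mean over its 3 probe sets PDIA3 was at -0.76 in T47D (adjusted p = 0.000392), the opposite sign to the brightest probe set. The files do not say which part of the transcript each probe set reads, so no direction is given here for PDIA3 as a gene.

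**Figure D3:**
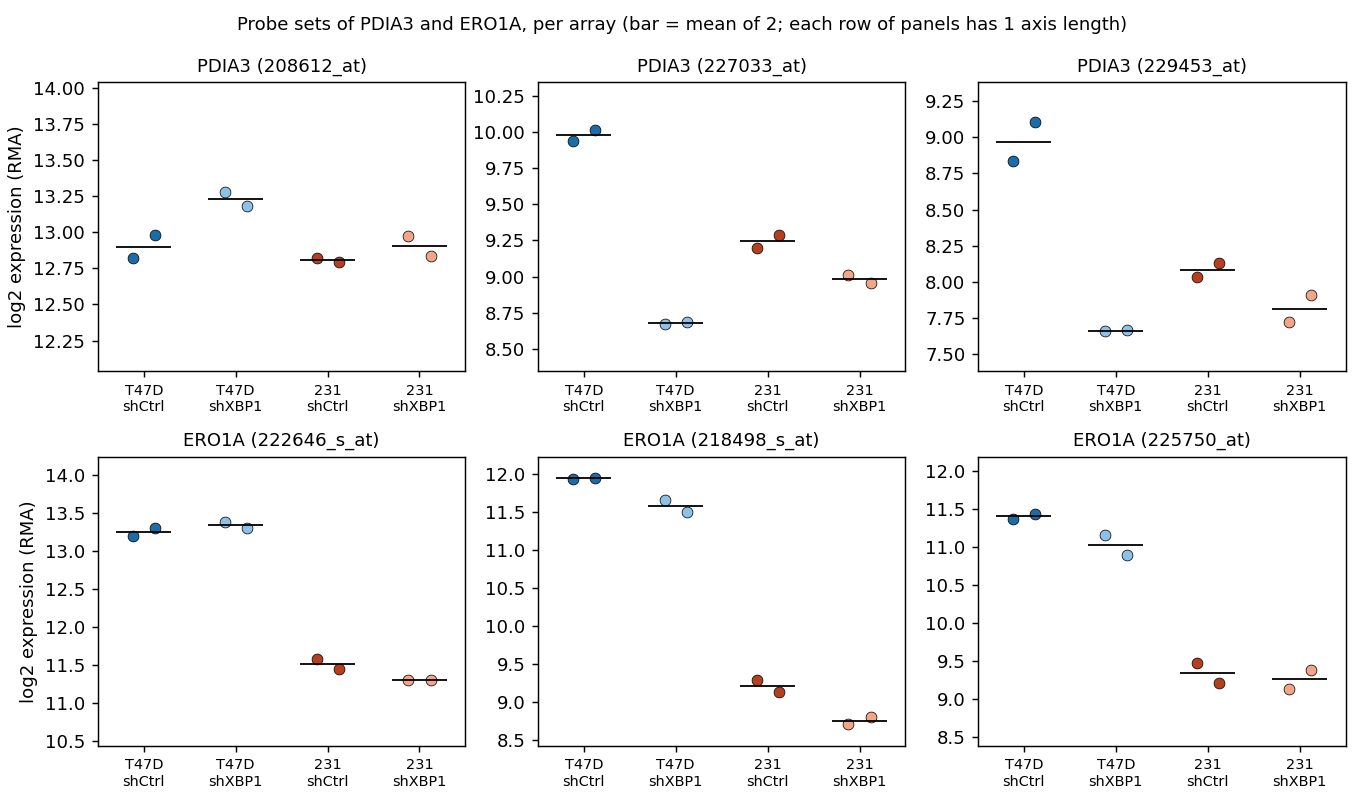
Log2 expression of each probe set of PDIA3 (top) and ERO1A (bottom) per array, with a bar at the mean of 2; panels of a row share 1 axis length. In T47D the left PDIA3 panel rises from a mean of 12.90 to 13.23 on knockdown while the other panels drop from 9.98 to 8.68 and from 8.97 to 7.66.

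PDIA6, known as P5, reduces and reshuffles disulfides and binds the stress sensors of the ER. Its brightest probe set (208639_x_at) read 11.81 and 11.88 with shCtrl against 11.55 and 11.37 with shXBP1 in T47D, and 13.13 and 13.12 against 13.09 and 12.97 in MDA-MB-231. The T47D change was -0.39 (SE 0.10, limma adjusted p = 0.0193), and the MDA-MB-231 change was -0.10 (95% interval -0.33 to 0.13, adjusted p = 0.556). The other probe sets gave -0.32, -0.35 and -0.14 in T47D, so all 4 had the same sign, and 3 of the 4 passed tested singly. Leaving out an array of T47D ended the call for shCtrl replicate 1 (adjusted p = 0.0573), for shCtrl replicate 2 (0.100) and for shXBP1 replicate 2 (0.144), with values between -0.42 and -0.30. Tested singly, each of the 3 PDIA6 probe sets that passed lost its call without any 1 T47D array. Probe sets ending in _x_at or _s_at can also read related transcripts.

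A known XBP1 and ATF6 element, the ER stress response element (ERSE, CCAAT and CCACG with 9 bases between them), was searched in the 250 bases before each start. The promoters of PDIA6 and ERO1B are printed because they alone among the entries searched hold its letters. RefSeq promoter entries (GRCh38.p14) matched 9 of the 10 genes, with 12 starts. PDIA3 had no entry, so its promoter was not searched. The ERSE letters, on either strand, stand in 1 of the PDIA6 starts, at positions -86 to -68 from it, and in ERO1B, on the other strand at -243 to -225. They occur in 26 of 35116 promoter windows of that length, or 0.0740%. The related element ERSE-II (ATTGG and CCACG with 1 base between them, 0.0513% of windows) was in none of the 12, and the XBP1 core TGACGTG (1.68%) in 1 start of TXNDC5. A letter match is no evidence that a factor binds there. The PDIA6 window is chr2:10812786-10813035 on the minus strand and the ERO1B window chr1:236281959-236282208 on the minus strand, printed in the direction of transcription with the ERSE match in capitals.
PDIA6: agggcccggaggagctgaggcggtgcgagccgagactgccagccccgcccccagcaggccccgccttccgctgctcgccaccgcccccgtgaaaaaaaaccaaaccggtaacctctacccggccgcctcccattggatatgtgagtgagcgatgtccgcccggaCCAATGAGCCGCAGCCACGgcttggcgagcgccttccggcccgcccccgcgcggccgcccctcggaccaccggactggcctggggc
ERO1B: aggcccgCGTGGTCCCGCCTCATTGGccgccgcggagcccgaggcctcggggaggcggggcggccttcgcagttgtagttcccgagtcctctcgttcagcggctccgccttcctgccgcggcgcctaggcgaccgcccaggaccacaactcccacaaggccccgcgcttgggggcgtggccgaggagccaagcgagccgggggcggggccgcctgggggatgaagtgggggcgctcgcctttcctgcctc

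P4HB, the archetypal isomerase PDI, is also the beta subunit of prolyl 4-hydroxylase. It read 13.08 and 13.05 with shCtrl against 12.94 and 12.89 with shXBP1 in T47D, and 12.81 and 12.79 against 12.92 and 12.73 in MDA-MB-231. Knockdown moved the brightest probe set by -0.15 in T47D (95% interval -0.37 to 0.07, limma adjusted p = 0.303) and by 0.02 in MDA-MB-231 (adjusted p = 0.911), and neither passed. The dimmest P4HB probe set (1564494_s_at) read 10.53 and 10.71 against 10.19 and 10.07 in T47D and passed there when tested singly (-0.49, SE 0.12, adjusted p = 0.017). It lost the call without T47D shCtrl replicate 2 (-0.40, adjusted p = 0.108), shXBP1 replicate 1 (-0.55, 0.0544) or shXBP1 replicate 2 (-0.43, 0.121). With the mean over its 3 probe sets P4HB was at -0.31 in T47D (adjusted p = 0.0446), past the threshold.

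PDIA4, also called ERp72, is a lumenal isomerase with several thioredoxin-like domains. It read 10.93 and 11.07 with shCtrl and 11.07 and 10.95 with shXBP1 in T47D, where the groups overlapped, and 11.25 on each shCtrl array against 11.45 and 11.31 in MDA-MB-231. The T47D change was 0.005 (95% interval -0.23 to 0.24, limma adjusted p = 0.979) and the MDA-MB-231 change 0.13 (-0.10 to 0.36, adjusted p = 0.450). Its second probe set gave 0.23 and 0.17 and did not pass. The intervals leave room for a change of either sign.

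TMX1 and TXNDC11 are membrane-bound members of the family. TMX1 acts on membrane-anchored clients, and TXNDC11 takes part in ER-associated degradation. TMX1 read 11.55 and 11.60 with shCtrl against 11.49 and 11.54 with shXBP1 in T47D, and 11.55 and 11.66 against 11.20 and 11.29 in MDA-MB-231. The MDA-MB-231 shXBP1 arrays were under all the others, with a change of -0.36 (SE 0.09, limma adjusted p = 0.0281), beside -0.07 in T47D (95% interval -0.27 to 0.14, adjusted p = 0.656). The second TMX1 probe set had -0.17 in MDA-MB-231 (adjusted p = 0.314) and -0.18 in T47D (adjusted p = 0.259). The call was lost without MDA-MB-231 shCtrl replicate 1 (adjusted p = 0.0598), shCtrl replicate 2 (0.115), shXBP1 replicate 1 (0.108) or either T47D shXBP1 array (0.0588), at -0.42 to -0.31, with only the MDA-MB-231 arrays in the fit (0.106) and with the mean over probe sets (0.0543).

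TXNDC11 had a single probe set, which read 7.74 and 7.91 with shCtrl against 8.06 and 8.05 with shXBP1 in T47D, and 7.15 and 7.02 against 7.52 and 7.46 in MDA-MB-231. The knockdown arrays were higher in both lines with no overlap. The change was 0.40 in MDA-MB-231 (SE 0.10, limma adjusted p = 0.0281) and 0.23 in T47D (SE 0.10, adjusted p = 0.128). The MDA-MB-231 call was lost without any 1 array of that line (0.34 to 0.47, adjusted p from 0.0543 to 0.118), without either T47D shXBP1 array (0.0591) and with only the MDA-MB-231 arrays in the fit (0.0869).

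ERO1A encodes the widely expressed oxidase. Its brightest probe set (222646_s_at) read 13.19 and 13.31 with shCtrl against 13.38 and 13.30 with shXBP1 in T47D, and 11.58 and 11.45 against 11.30 and 11.31 in MDA-MB-231. The T47D groups overlapped, with a change of 0.09 (95% interval -0.13 to 0.30, limma adjusted p = 0.569), and the mean over the 3 ERO1A probe sets had the opposite sign (-0.22, adjusted p = 0.164). The MDA-MB-231 arrays did not overlap, with a change of -0.21 (-0.43 to 0.004, adjusted p = 0.175). In the line comparison below the gap between these groups was far larger than either.

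Probe set 218498_s_at of ERO1A fell in both lines. It read 11.94 on each T47D shCtrl array against 11.65 and 11.50 with shXBP1, a change of -0.36 (SE 0.11, limma adjusted p = 0.0435), and 9.30 and 9.13 against 8.71 and 8.80 in MDA-MB-231, a change of -0.46 (SE 0.11, adjusted p = 0.0231). The T47D call was lost without any 1 T47D array (-0.44 to -0.29, adjusted p up to 0.251). The MDA-MB-231 call was lost without shCtrl replicate 1 (-0.38, adjusted p = 0.122) or shXBP1 replicate 1 (-0.42, adjusted p = 0.103). A further ERO1A probe set (225750_at) was at -0.37 in T47D (adjusted p = 0.104) and at -0.08 in MDA-MB-231 (adjusted p = 0.761).

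The promoter of ERO1A was searched for the cores of the hypoxia response element because the gene is known as hypoxia-inducible and its level, as given below, differed between the lines under shared hypoxia. ACGTG (18.5% of all windows) was found once, on the other strand at -114 to -110 from the start, and GCGTG (32.2%) once, on the other strand at -170 to -166. Both cores are common among the windows. Every other member gene with a promoter entry also held a match to either core, and PDIA5 and TXNDC5 to both. The matches thus do not set ERO1A apart from the other members. The untreated conditions were not analysed here. The RefSeq window, GRCh38.p14 chr14:52695559-52695808 on the minus strand, is printed in the direction of transcription with the complements of both cores in capitals.
ERO1A: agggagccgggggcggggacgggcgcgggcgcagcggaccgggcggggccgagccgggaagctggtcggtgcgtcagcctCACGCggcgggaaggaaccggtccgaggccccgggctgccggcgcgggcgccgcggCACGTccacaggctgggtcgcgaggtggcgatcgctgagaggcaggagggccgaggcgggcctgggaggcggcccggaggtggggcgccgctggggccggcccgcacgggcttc

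ERO1B, the oxidase known from secretory tissues such as pancreas and stomach, read 8.81 and 8.50 with shCtrl against 8.38 and 8.26 with shXBP1 in T47D, and 4.68 and 4.33 against 3.99 and 4.05 in MDA-MB-231. The shXBP1 arrays were lower in both lines, by 0.33 in T47D (95% interval for the change -0.67 to 0.02, limma adjusted p = 0.148) and by 0.48 in MDA-MB-231 (-0.83 to -0.14, adjusted p = 0.062), and neither passed. All 4 MDA-MB-231 values lie under the median of all array values. The MDA-MB-231 change passed without MDA-MB-231 shCtrl replicate 2 (-0.66, adjusted p = 0.0354), with dim genes left out by the mean over arrays (0.0377) or by the highest group mean (0.0419) and with the mean over probe sets (-0.33, 0.0227). The second probe set overlapped between hairpins in both lines.

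For the 8 genes no difference between the knockdown changes of the lines passed limma's test, beside 24.8% of all genes (13.0% higher, 11.8% lower), and 1 had an unadjusted p under 0.05. That gene was TMX1 (-0.30, adjusted p = 0.130). The 95% interval of the difference was -0.03 to 0.61 for PDIA6 and -0.15 to 0.49 for TXNDC11, so that calls in a single line do not show that the lines respond unlike each other. Of the 20 probe sets tested singly, the 2 dim PDIA3 probe sets above passed, with positive differences (beside 21.1% of all probe sets, 9.67% higher and 11.5% lower). With limma's trend and robust options 3 of the 8 genes passed, beside 5989 of all 19775 genes. These were PDIA6 (0.29, adjusted p = 0.025), TMX1 (-0.30, 0.02) and ERO1A (-0.30, 0.0148). Of the 20 probe sets 8 passed with the trend and robust options, a count given without the share over all probe sets.

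At the brightest probe set of ERO1B, ERO1A, PDIA6 and TXNDC11 the lines differed by more than the hairpins did within either line. These line differences passed limma's test. The line difference was also the larger one for P4HB (-0.26) and PDIA4 (0.25), but it did not pass. With shCtrl, MDA-MB-231 had 3.33-fold less ERO1A and 1.67-fold less TXNDC11 than T47D, and 2.42-fold more PDIA6. ERO1B was lower by 17.7-fold, a fold against a level under the median of all array values that can understate the gap. The other genes, P4HB, PDIA3, PDIA4 and TMX1, did not pass at the brightest probe set. The count was 4 of 8 called, or 50.0%, beside 49.0% of all genes (23.7% higher and 25.2% lower), so the share of members called was near that of the array as a whole. Of the 20 probe sets 5 were higher and 9 lower in MDA-MB-231, with a median of -0.23, beside 44.4% of all probe sets called (22.8% higher, 21.6% lower). Both groups lived under the same stress, and the difference is between 2 lines and not between 2 tumour types.

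ERO1B fell by 4.15 between the lines (SE 0.15, limma adjusted p = 2.5e-07), from means of 8.65 to 4.50, and its second probe set by 4.27 (adjusted p = 2.77e-07), from 8.10 and 8.38 to 3.74 and 4.20. Both probe sets are under the median of all array values on the 4 MDA-MB-231 arrays, where RMA compresses folds. ERO1A differed by -1.74 (SE 0.09, adjusted p = 1.98e-06) at the brightest probe set and by -2.72 and -2.06 at the others, which is 6.61-fold and 4.16-fold lower. All 3 ERO1A probe sets had both T47D groups above both MDA-MB-231 groups.

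PDIA6, with ERSE letters at 1 of its starts as ERO1B has at its own, was higher in MDA-MB-231 by 1.28 (SE 0.10, limma adjusted p = 1.37e-05), and its 4 probe sets gave 0.96 to 1.37, all called. TXNDC11 was lower by 0.74 (SE 0.10, adjusted p = 0.000345). P4HB was at -0.26 (SE 0.10, adjusted p = 0.0531) and PDIA4 at 0.25 (SE 0.10, adjusted p = 0.069), and neither passed. Each passed in several other settings, among them the mean over probe sets (P4HB adjusted p = 0.0439, PDIA4 0.49 with 0.000754). Tested singly with limma, the second PDIA4 probe set (208658_at) was higher by 0.72 (adjusted p = 0.000432). The P4HB probe set 200656_s_at was at -0.35 (adjusted p = 0.0385) and passed, while 1564494_s_at was at -0.20 (0.21) and did not. P4HB also passed without either MDA-MB-231 shXBP1 array (adjusted p = 0.0294). PDIA3 was at -0.09 (adjusted p = 0.489) at its brightest probe set and at -0.73 and -0.89 at the others (adjusted p = 0.000284 and 0.000436). TMX1 was at 0.03 (95% interval -0.18 to 0.23, adjusted p = 0.839).

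**Figure D4:**
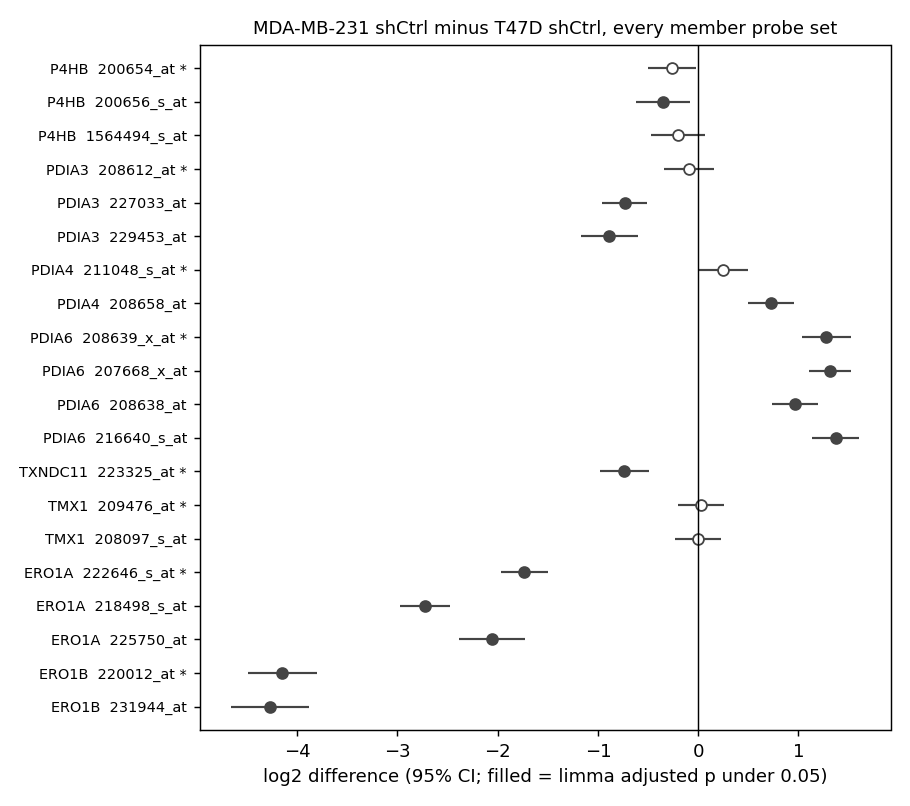
Difference between the lines with the control hairpin (log2, MDA-MB-231 shCtrl minus T47D shCtrl, with 95% confidence intervals) for all 20 member probe sets; filled points passed limma's test. The ERO1B probe sets lie at -4.15 and -4.27, the ERO1A probe sets between -2.72 and -1.74, and the PDIA6 probe sets between 0.96 and 1.37.

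Further genes of disulfide chemistry were taken from 3 lists. Of 13 other genes of the isomerase family, 3 rose and 3 fell on XBP1 knockdown in T47D and 7 did not pass (46.2% called, beside 29.1% of all genes), with a median of -0.15 beside -0.02 over all genes. AGR3, an isomerase relative of secretory epithelial cells, rose by 1.15 (SE 0.10, limma adjusted p = 0.000172) from 12.66 and 12.63 to 13.84 and 13.74. DNAJC10, a reductase that prepares misfolded proteins for degradation, fell by 0.73 (SE 0.10, adjusted p = 0.000972) and TXNDC16 by 0.69 (SE 0.10, adjusted p = 0.00129). ERP29, a relative without redox activity, rose by 0.47 (adjusted p = 0.0121), a call lost without T47D shCtrl replicate 1 or either T47D shXBP1 array (0.34 to 0.60, adjusted p up to 0.0786). The count of 6 called genes was 3 without T47D shXBP1 replicate 1 and 4 to 6 without any other array.

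In MDA-MB-231, 1 of these 13 genes rose, 2 fell and 10 did not pass (23.1% called, beside 17.2% of all genes), with a median of 0.07 beside 0.03. The count of 3 was 1 without MDA-MB-231 shCtrl replicate 1, shCtrl replicate 2 or shXBP1 replicate 1. It was 5 when MDA-MB-231 shXBP1 replicate 2 was left out, and 2 for each T47D array left out. TXNDC12, a small lumenal oxidoreductase, rose by 0.57 (SE 0.08, limma adjusted p = 0.00333) from 11.27 on each shCtrl array to 11.88 and 11.79. In T47D it went the other way, from 11.08 and 11.11 to 10.78 and 10.79 (-0.31, called), a call lost without any 1 T47D array (adjusted p up to 0.119). TMX4 fell by 0.43 (adjusted p = 0.0243), a call lost without MDA-MB-231 shCtrl replicate 1, shCtrl replicate 2 or shXBP1 replicate 1 (-0.52 to -0.35, adjusted p up to 0.112) and with the mean over probe sets (-0.32, 0.0941). DNAJC10 fell by 0.36 (adjusted p = 0.0376), a call lost without any 1 array other than MDA-MB-231 shXBP1 replicate 2 (-0.44 to -0.29, adjusted p up to 0.166) and with the mean over probe sets (-0.28, 0.0894). AGR3 was under the median of all array values on all 4 MDA-MB-231 arrays.

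Of 11 genes of thiol oxidation and peroxide handling, 3 rose and 4 fell in T47D (63.6% called, beside 29.1% of all genes), with a median of -0.21 beside -0.02. SELENOS, a selenoprotein of ER-associated degradation, fell by 0.98 (SE 0.09, limma adjusted p = 0.000173). VKORC1, which reduces vitamin K and can draw electrons from isomerases, fell by 0.91 (SE 0.09, adjusted p = 0.000284), and the thioredoxin-like SELENOM by 0.90 (SE 0.11, adjusted p = 0.000776). GPX8, an ER peroxidase, rose by 0.66 at its brightest probe set (SE 0.09, adjusted p = 0.00112), but its second was at -0.21 and the mean over probe sets at 0.22 (adjusted p = 0.101). These calls stood when any 1 array was left out. PRDX4, the peroxiredoxin that uses the peroxide ERO1 makes, went from 13.17 and 13.26 to 12.75 and 12.68, and QSOX1, a sulfhydryl oxidase that works apart from ERO1, from 7.90 and 8.22 to 8.71 and 8.71. Both were called in T47D (-0.50 and 0.65, limma), QSOX1 with 0.38 and an adjusted p of 0.0501 as the mean over probe sets, and they are named outside the rule for named genes, after their values were seen, as the list members nearest to ERO1 in function.

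In MDA-MB-231, 1 of the 11 rose, 2 fell and 8 did not pass (27.3% called, beside 17.2% of all genes), with a median of -0.03 beside 0.03. SELENOM rose by 0.65 (SE 0.11, limma adjusted p = 0.00693), from 11.52 and 11.57 to 12.34 and 12.05, where in T47D it had gone from 10.93 and 11.02 to 10.05 and 10.11. SELENOS fell by 0.47 (SE 0.09, adjusted p = 0.00978) and VKORC1 by 0.41 (SE 0.09, adjusted p = 0.0201), the latter called in no fit without 1 of the 4 MDA-MB-231 arrays (adjusted p up to 0.0847).

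Of 9 partners of the isomerases, 2 rose and 2 fell in T47D (44.4% called, beside 29.1% of all genes), with a median of -0.05 beside -0.02. The count of 4 was 2 without T47D shXBP1 replicate 1 or 2. CLGN, a calnexin relative, rose by 1.51 (SE 0.15, limma adjusted p = 0.000286) from 7.09 and 6.94 to 8.46 and 8.58. At the brightest probe sets of the glycoprotein folding sensors, UGGT1 was at -0.34 (limma adjusted p = 0.0331) and UGGT2 at 0.39 (adjusted p = 0.0105). Tested singly, that UGGT1 probe set had an adjusted p of 0.0504. The UGGT1 call was lost without T47D shCtrl replicate 2 and the UGGT2 call without T47D shCtrl replicate 1, and both without either T47D shXBP1 array (adjusted p up to 0.184 and 0.0759). With the mean over probe sets UGGT1 was at -0.24 (adjusted p = 0.0543). P4HA2, the catalytic partner of P4HB in a prolyl 4-hydroxylase, was at -0.47 (SE 0.08, adjusted p = 0.00393). For UGGT2 and P4HA2 another probe set passed in the opposite direction, and the mean over probe sets gave 0.06 for each (adjusted p = 0.729 and 0.745), so no direction is given for either gene in T47D.

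In MDA-MB-231, 2 of the 9 partners rose, 1 fell and 6 did not pass (33.3% called, beside 17.2% of all genes), with a median of 0.02 beside 0.03. UGGT1 fell by 0.58 (SE 0.10, limma adjusted p = 0.00579), from 9.78 and 9.73 to 9.14 and 9.21, and by 0.37 with the mean over probe sets (adjusted p = 0.0167). P4HA2 rose by 0.49 (SE 0.08, adjusted p = 0.00691), from 9.89 and 9.86 to 10.36 on each shXBP1 array. P4HA1, another catalytic partner of P4HB, rose by 0.35 (adjusted p = 0.0286), a call lost without MDA-MB-231 shCtrl replicate 1 or 2, shXBP1 replicate 1 or either T47D shXBP1 array (0.29 to 0.41, adjusted p up to 0.107) and with the mean over probe sets (0.24, 0.141). P4HB itself, as given above, passed in neither line. CLGN was dim on all 4 MDA-MB-231 arrays.

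**Figure D5:**
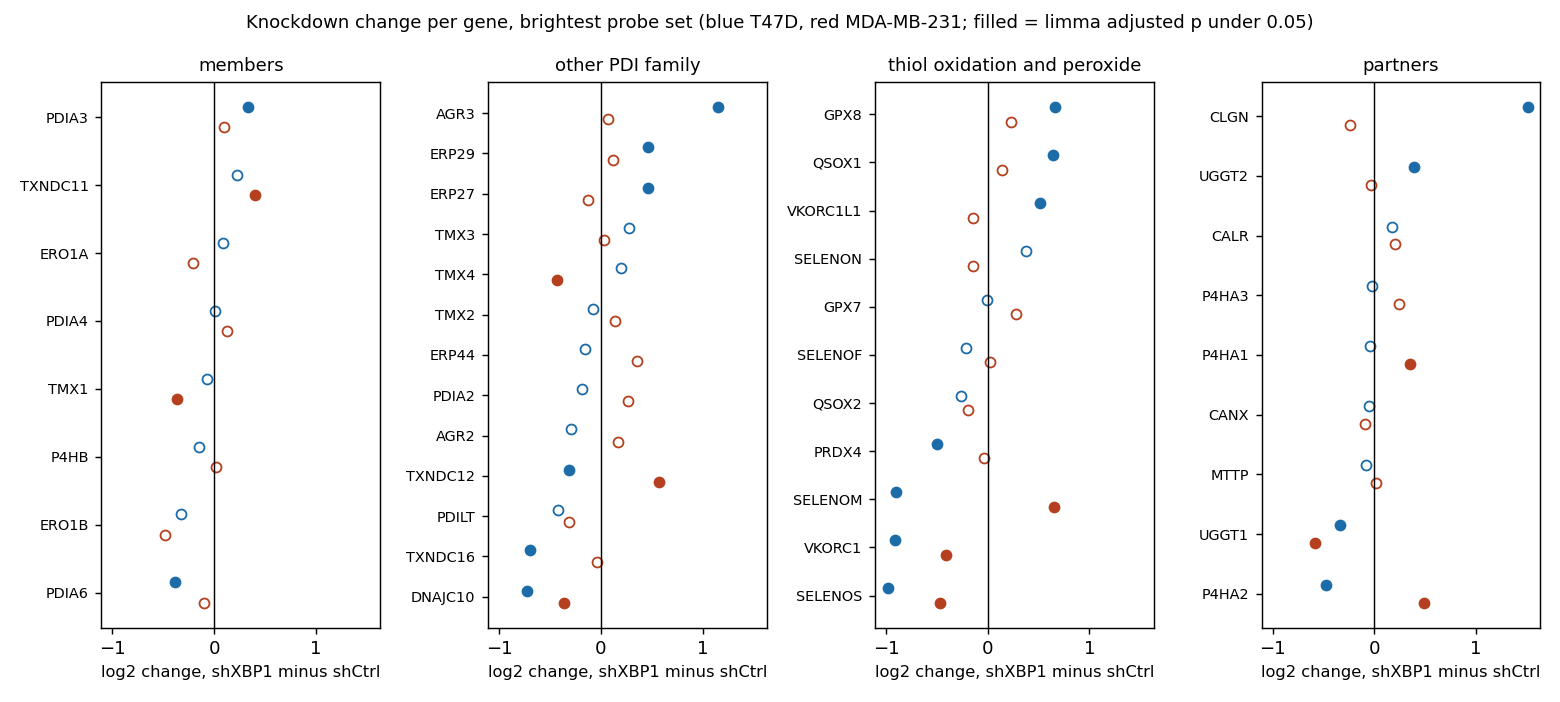
Change on XBP1 knockdown (log2, brightest probe set) of the 8 members and of the genes in 3 further lists, in T47D (blue) and MDA-MB-231 (red); filled points passed limma's test. The members lie between -0.48 and 0.40, while the lists reach from -0.98 (SELENOS) to 1.51 (CLGN), both in T47D.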

How the data were processed

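RNA from 8 samples was measured on 1-colour Affymetrix arrays. The authors deposited log2 expression values per probe set, made with RMA (affy 1.30.0), per the submitters' processing notes; the set of arrays that RMA ran on is not stated. RMA equalizes arrays by quantiles and compresses folds at dim levels. Deposited values were used unchanged. Of 54675 probe sets 42898 were annotated, 1801 of them with several symbols and not used. A gene took its brightest single-symbol probe set. Array medians were 5.87 to 5.91, replicate correlations 0.996 to 0.998, and the 2 arrays per group limit the precision.

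In R 4.3.3, limma 3.58.1 (lmFit, eBayes) fitted the 4 group means on 8 arrays (4 residual degrees of freedom, 7.62 after moderation). Contrasts were two-sided and adjusted by Benjamini-Hochberg over all genes, or over all probe sets where these were tested singly. The median SE was 0.119 for a knockdown change in T47D and 0.168 for the difference. An exact permutation test of 2 against 2 cannot go below p = 0.333. The scripts were tested on simulated data. Same-numbered arrays did not deviate together (correlations 0.00 in T47D and -0.07 in MDA-MB-231), so numbers were not used as pairs. All measured members are named, with up to 4 called genes of the largest change per further list (other isomerase family, thiol oxidation and peroxide, partners) and knockdown; exceptions are stated. Luminal, mesenchymal, leukocyte and fibroblast markers served as checks. Members and lists were chosen with earlier results of these data known. Tests of single probe sets under other settings, and settings for the further lists, were added after seeing the data. Other settings were the gene summary, filters on dim genes, renewed quantile normalization, limma's trend and robust options, only the arrays compared, a minimum fold and 1 array left out. Motifs were searched in the RefSeq promoters of GRCh38.p14. Untreated conditions, PDIA5 and TXNDC5 were not analysed here.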

Additional observations from a re-analysis of the deposited data

Results flagged for a closer look

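The results below were singled out because the change on knockdown differed between the lines by limma's interaction test; all values are the MDA-MB-231 change minus the T47D change, on the log2 scale. For XBP1 itself the difference was 1.30 at its brightest probe set (adjusted p = 0.00745), a smaller fall in MDA-MB-231 from a lower start. Its second, dim probe set had 0.42 (adjusted p = 0.176), and the mean over its probe sets had 0.86 (adjusted p = 0.00262). For PDIA3 it was 1.04 at 227033_at (adjusted p = 0.00148) and 1.04 at 229453_at (adjusted p = 0.00437), while the brightest PDIA3 probe set had -0.23 (adjusted p = 0.293).

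Among the isomerase relatives, TXNDC12 had a difference of 0.88 (adjusted p = 0.00155), with called changes of opposite sign in the lines, TXNDC16 had 0.66 (adjusted p = 0.0109) and AGR3 had -1.08 (adjusted p = 0.0017), though AGR3 is dim in MDA-MB-231. TMX4 had -0.63 (adjusted p = 0.0148), lost without T47D shCtrl replicate 1 or T47D shXBP1 replicate 2 (adjusted p up to 0.0658) and with the mean over probe sets (-0.38, 0.127). Among the oxidation genes, SELENOM had 1.55 (adjusted p = 0.000581), also with called changes of opposite sign. SELENOS had 0.51 (adjusted p = 0.0206) and VKORC1 0.50 (adjusted p = 0.0271), and both were lost without T47D shCtrl replicate 2, either T47D shXBP1 array, MDA-MB-231 shCtrl replicate 1 or shXBP1 replicate 1 (adjusted p up to 0.0814 and 0.107). GPX8 had -0.43 (adjusted p = 0.0431), lost without any 1 array other than MDA-MB-231 shXBP1 replicate 1 (adjusted p up to 0.153), and its second probe set had 1.08 (adjusted p = 0.00571).

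Among the partners, CLGN had -1.75 (adjusted p = 0.00117), with dim values in MDA-MB-231, and P4HA2 had 0.96 (adjusted p = 0.00119), or 0.45 with the mean over probe sets (adjusted p = 0.0507). UGGT2 had -0.43 (adjusted p = 0.0372) and P4HA1 had 0.39 (adjusted p = 0.048), both lost without any 1 array other than MDA-MB-231 shXBP1 replicate 2 (adjusted p up to 0.126 and 0.137). With the mean over probe sets UGGT2 was at -0.03 (adjusted p = 0.896) and P4HA1 at 0.27 (adjusted p = 0.195).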

How the results depend on the processing

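Each array left out leaves its group with 1 array, assumed to vary like the others. The count of genes called was 5746 (T47D knockdown), 3410 (MDA-MB-231 knockdown), 4905 (difference) and 9683 (lines). It was 9969, 6504, 8689 and 18253 with each probe set tested singly, 3264 and 1738 for the knockdowns with a fold of at least 1.5, and 1897 for MDA-MB-231 with only its arrays. Without 1 array it was 3890 to 5912, 2063 to 2931, 3337 to 4801 and, for the lines, within 1.5 times. Of MDA-MB-231 calls 61.3% were higher over genes and 49.3% with each probe set tested singly.

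Of the 8 members, 2 were called in T47D, 4 with any probe set tested singly, 1 with only its arrays, 0 with a fold of at least 1.5 and 0 to 2 without 1 array. The 2 called in MDA-MB-231 went to 0 with only its arrays or the minimum fold, and to 0 to 2 without 1 array. For the difference, 0 became 1 with the mean over probe sets (beside 4751 of all genes) and 3 with trend and robust fitting (beside 5989). It became 1 with probe sets tested singly, where a gene with several probe sets has several chances to pass. Member counts without a count over all genes or probe sets beside them are not read as results about the members. For the lines, 4 became 7 with the mean over probe sets or probe sets tested singly, and 4 to 5 without 1 array. Of 20 probe sets, 7 were called in T47D (2 to 7 without 1 array), 3 in MDA-MB-231 (5 with trend and robust fitting, 5 without dim probe sets, 0 with only its arrays, 0 to 2 without 1 array), 2 for the difference (8 with trend and robust fitting) and 14 for the lines (13 to 15). The sign turned for PDIA3 with the mean over probe sets: -0.76 in T47D (adjusted p = 0.000392) and 0.62 for the difference (adjusted p = 0.00766); the mean holds the dimmer probe sets by construction. Among member values that passed in neither setting, the mean over probe sets also turned the sign of ERO1A in T47D (0.09 to -0.22) and of PDIA3 in MDA-MB-231 (0.10 to -0.14), and some other settings that of PDIA4 in T47D, P4HB in MDA-MB-231, ERO1B for the difference and TMX1 between the lines, with values between -0.08 and 0.02.

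The replicate number as a block, which does not pair these arrays, left 0 members called in either knockdown, 3 of 20 probe sets in T47D and 0 in MDA-MB-231. The cause of the other moves was not tested. Signal near background limits ERO1B in MDA-MB-231.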
